A study of Mus musculus with 11 samples.

Results

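The transcripts of 32 lysosomal genes were followed in sympathetic ganglia of the mouse, which hold noradrenergic neurons, the glia that wrap them and cells of the connective tissue around both. The genes encode hydrolases of the lysosome, proteins of its membrane and proteins that handle lipids inside it. They were taken by name from a list, which was chosen with earlier results of these data known. All probe sets that the platform annotation assigns to 1 of these genes and to no other were taken. That gave 58 probe sets for 30 of the 32 genes, out of 20380 single-gene probe sets for 12393 genes on the array. Cd63 and Arsb were not analysed here. A filter on low values kept 53 of the 58 probe sets and all 30 genes with a probe set, against 8433 genes in all.

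Ganglia of 6 Apoe-deficient arrays (genotype apoE-/-) were compared with ganglia of 5 wild-type arrays. Both groups were male C57BL mice aged 78 weeks on normal chow, from the Jackson Laboratory, and the ganglia were cut from frozen tissue by laser capture. Apolipoprotein E carries lipids between cells, and the series title sets the comparison in the exchange between the atherosclerotic aorta and the peripheral nervous system. Which animal an array came from is not in the labels: every p-value below would be too small if animals were shared, and otherwise reflects sample-to-sample spread that can include technical spread.

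Lysosomes are acidic compartments that take in material from outside the cell and from worn-out parts of the cell itself, and their hydrolases cut it into sugars, amino acids, fatty acids and cholesterol for export. Cells that take up much lipoprotein or debris, such as macrophages, depend on them, and so do long-lived neurons, in which loss of a single hydrolase leads to storage disease. Many lysosomal genes carry a palindromic element in the promoter that the transcription factor TFEB and its relatives can bind, and its centre is CACGTG.

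The promoters were searched for that centre, a sequence feature that was not itself used to choose the genes. Since many lysosomal genes carry the element, a share above that of all genes is no independent result. RefSeq promoter windows (GRCm38.p6, 250 bases before to 50 after each start) were available for 30 of the 32 genes, Asah1 and Npc1 being the others. CACGTG, which reads the same on both strands, stood in 9 of the 30 (30%), against 8.09% of 27025 genes with a window. The longer palindrome TCACGTGA, which contains it, stood in 3 of the 30 (10%), against 1.12% of all genes. The stretches of those 9 promoters that hold the motif follow, 5′ to 3′ on the gene's own strand, with CACGTG in capitals and every base before the start of the gene.
Arsa (chr15:89477425-89477452, minus strand): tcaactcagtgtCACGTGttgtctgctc
Cln3 (chr7:126583340-126583397, minus strand): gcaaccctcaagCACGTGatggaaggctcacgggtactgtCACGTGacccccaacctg
Gaa (chr11:119267811-119267840, plus strand): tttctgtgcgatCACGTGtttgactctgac
Gla (chrX:134601182-134601244, minus strand): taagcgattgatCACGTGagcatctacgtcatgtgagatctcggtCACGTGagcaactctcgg
Glb1 (chr9:114401018-114401047, plus strand): ctgcttctgagtCACGTGgcctacagaggc
Lamp1 (chr8:13159088-13159160, plus strand): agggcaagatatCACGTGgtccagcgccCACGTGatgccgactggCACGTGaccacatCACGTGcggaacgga
Mcoln1 (chr8:3500436-3500491, plus strand): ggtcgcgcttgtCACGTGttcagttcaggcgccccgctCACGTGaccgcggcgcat
Naglu (chr11:101070009-101070038, plus strand): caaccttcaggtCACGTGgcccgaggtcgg
Sgsh (chr11:119355522-119355551, minus strand): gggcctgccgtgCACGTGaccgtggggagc
Lamp1 held 4 copies within 73 bases, Cln3, Gla and Mcoln1 held 2 each, and the other 5 held 1. The 9 genes did not share a direction in the comparison below: their median log2 difference was -0.05, with a range from -0.34 to 0.35 and 3 of 9 above 0. Among the 19 measured genes whose window lacked CACGTG the median was 0.02, with a range from -0.32 to 0.61 and 11 above 0. These are descriptions of letters in a window, and no binding was measured.

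Across the 30 measured lysosomal genes, 0 passed the threshold in either direction, by limma with Benjamini-Hochberg adjustment over all 8433 genes at 0.05. The background was 1.93% of all genes called, 1.26% called higher and 0.676% called lower in Apoe-deficient ganglia. At an unadjusted p under 0.05 there were 6 of 30 lysosomal genes, 3 higher and 3 lower. Those 20% stand beside 20.3% of all genes, so the share was that of the background. The groups overlapped for every one of the 30 genes, and they did not overlap for 2.96% of all genes. At background shares this low, 0 of 30 does not set the lysosomal genes apart from all genes, for calls or for overlap. The median log2 difference of the lysosomal genes was -0.01, with 15 above 0 and 15 below, and that of all genes was -0.04. Of all genes 43.0% lay above 0.

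The size of what could have been missed is given by the intervals. Differences were taken on log2(signal + 16) values after quantile normalisation, a scale that understates the change of low genes, and they ran from -0.34 for Sgsh to 0.61 for Lamp2. The 95% interval of the difference included 0 for 24 of 30 genes. It lay within -0.5 to 0.5 for 17 genes and within -1 to 1 for 29. The exception was Lamp2, at 0.02 to 1.20. A p that misses the threshold does not show that the groups were alike. Each interval, taken alone, limits the difference to less than 1 log2 unit on this scale for all but Lamp2. That holds only for the probe set that stands for each gene. Other probe sets are not covered, such as that of Gm2a at 0.65 (SE 0.24), given below. The intervals also make no allowance for the control levels described below.

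**Figure D1:**
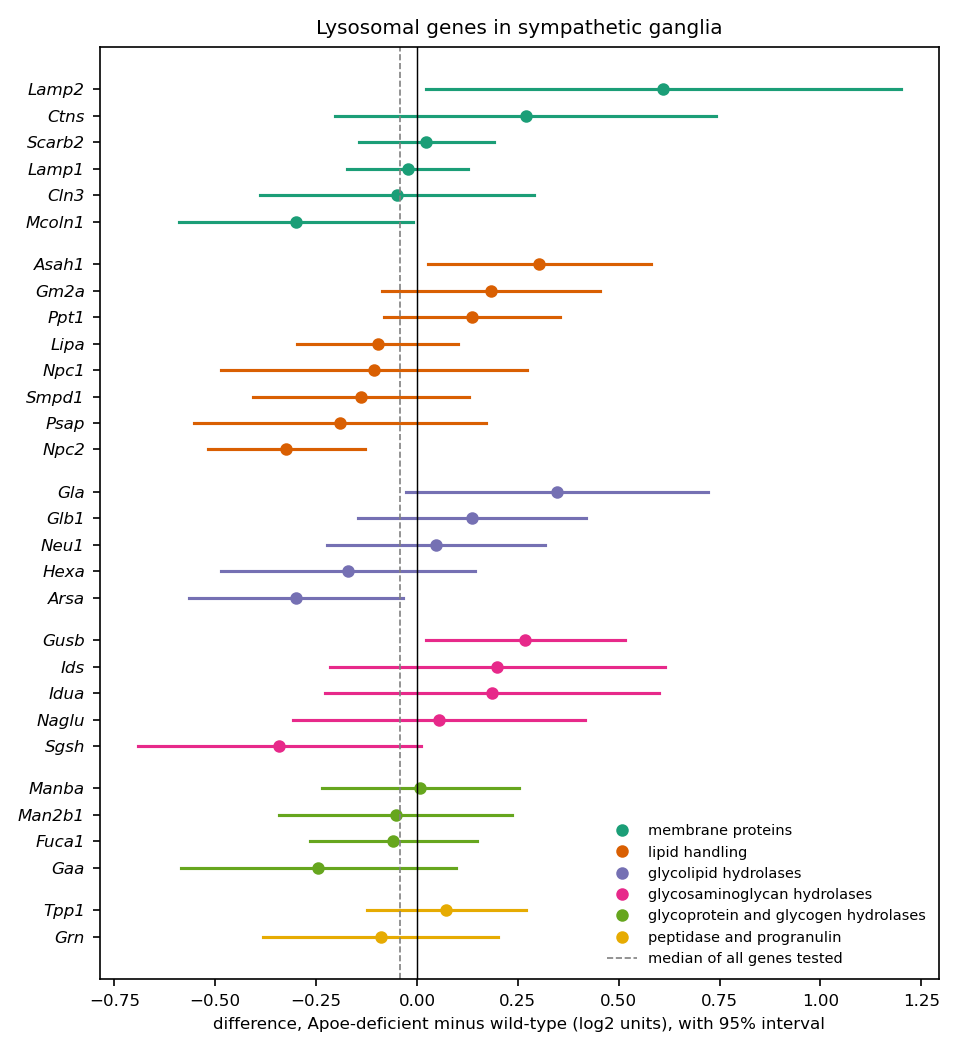
The log2 difference, Apoe-deficient minus wild-type, is shown on the x axis for 30 lysosomal genes grouped by role, with the 95% interval from limma as a line. The dashed line is the median of all 8433 genes tested (-0.04); 15 points lie above 0 and 15 below, and the interval of Lamp2 (0.02 to 1.20) is the widest.

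Of the 8 lipid-handling genes 3 had differences above 0 and 5 below, and 0 passed the test (2 at an unadjusted p under 0.05, Npc2 and Asah1). Npc2, the soluble protein that passes cholesterol to the membrane protein Npc1 for export, came closest to the threshold. Its deposited signal ran from 4715.0 to 6968.3 with a median of 5239 in Apoe-deficient ganglia, against 7841.1, 6379.9, 7385.5, 6426.7 and 6882.2 in wild-type ganglia. On the normalised scale 5 of 6 Apoe-deficient arrays lay below all wild-type arrays, and the remaining one, Apoe-deficient replicate 1, lay just inside their range. The log2 difference was -0.32 (SE 0.09, 95% interval -0.52 to -0.13, limma adjusted p = 0.081). Npc2 was called with array weights (-0.37, adjusted p = 0.0237), where 7.92% of all genes were called, and without Apoe-deficient replicate 1 (-0.35, adjusted p = 0.0496), where 3.11% were, both by limma. Npc1 averaged 208 ± 42.3 (SD, n = 6) in Apoe-deficient and 225 ± 54.5 (SD, n = 5) in wild-type ganglia, a log2 difference of -0.11 (limma adjusted p = 0.76). Lipa, the acid lipase that frees cholesterol from lipoprotein esters, averaged 636 ± 38.6 in Apoe-deficient and 676 ± 57.4 in wild-type ganglia (-0.10, 95% interval -0.30 to 0.10).

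Asah1, the acid ceramidase, ran from 1121.9 to 1905.6 with a median of 1533 in Apoe-deficient ganglia, against 1176.8, 1035.3, 1294.4, 1436.6 and 1130.6 in wild-type ganglia. On the normalised scale 4 of 6 Apoe-deficient arrays lay above all wild-type arrays (log2 difference 0.30, SE 0.13, limma adjusted p = 0.21). Gm2a, the activator that presents ganglioside to hexosaminidase, ran from 917.7 to 1532.9 with a median of 1204 in Apoe-deficient ganglia, against 1059.0, 890.4, 1043.0, 972.9 and 1146.5 in wild-type ganglia. Its lowest Apoe-deficient array lay below the wild-type arrays on the normalised scale while 4 others lay above them (0.18, SE 0.13, limma adjusted p = 0.42). Ppt1, which removes palmitate from proteins, ran from 684.6 to 864.0 with a median of 727 in Apoe-deficient ganglia, against 661.0, 614.8, 624.6, 783.6 and 682.3 in wild-type ganglia (0.14, limma adjusted p = 0.46). Smpd1, the acid sphingomyelinase, had a difference of -0.14, and Psap, the precursor of the saposins that help sphingolipid hydrolases, one of -0.19 (limma adjusted p = 0.55 and 0.54).

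Membrane proteins held the largest difference and some of the smallest. Lamp2, which lines the lysosomal membrane and serves in autophagy, ran from 840.5 to 2042.2 with a median of 1844 in Apoe-deficient ganglia, against 1664.5, 546.9, 736.6, 1438.3 and 1058.6 in wild-type ganglia. The arrays of both groups spread widely, and 4 of 6 Apoe-deficient arrays lay above all wild-type arrays on the normalised scale (0.61, SE 0.28, limma adjusted p = 0.23). Mcoln1, the cation channel that releases calcium from lysosomes, ran from 457.9 to 695.7 with a median of 652 in Apoe-deficient ganglia, against 853.9, 777.8, 803.9, 593.8 and 689.9 in wild-type ganglia. Of its 6 Apoe-deficient arrays 2 lay below all wild-type arrays (-0.30, SE 0.14, limma adjusted p = 0.24). Ctns, the exporter of cystine, ran from 141.7 to 274.1 with a median of 221 in Apoe-deficient ganglia, against 205.2, 98.8, 213.8, 182.1 and 197.8 in wild-type ganglia. Its wild-type values rest in part on the low array, replicate 2, without which the difference was 0.07 against 0.27 with all arrays (limma adjusted p = 0.50 with all arrays). Lamp1, the other abundant glycoprotein of the membrane, had the narrowest interval of the 30 genes (-0.02, 95% interval -0.17 to 0.13). Scarb2, the receptor that brings glucocerebrosidase to the lysosome, had a difference of 0.02 (95% interval -0.14 to 0.19) and Cln3, mutated in juvenile Batten disease in humans, one of -0.05.

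**Figure D2:**
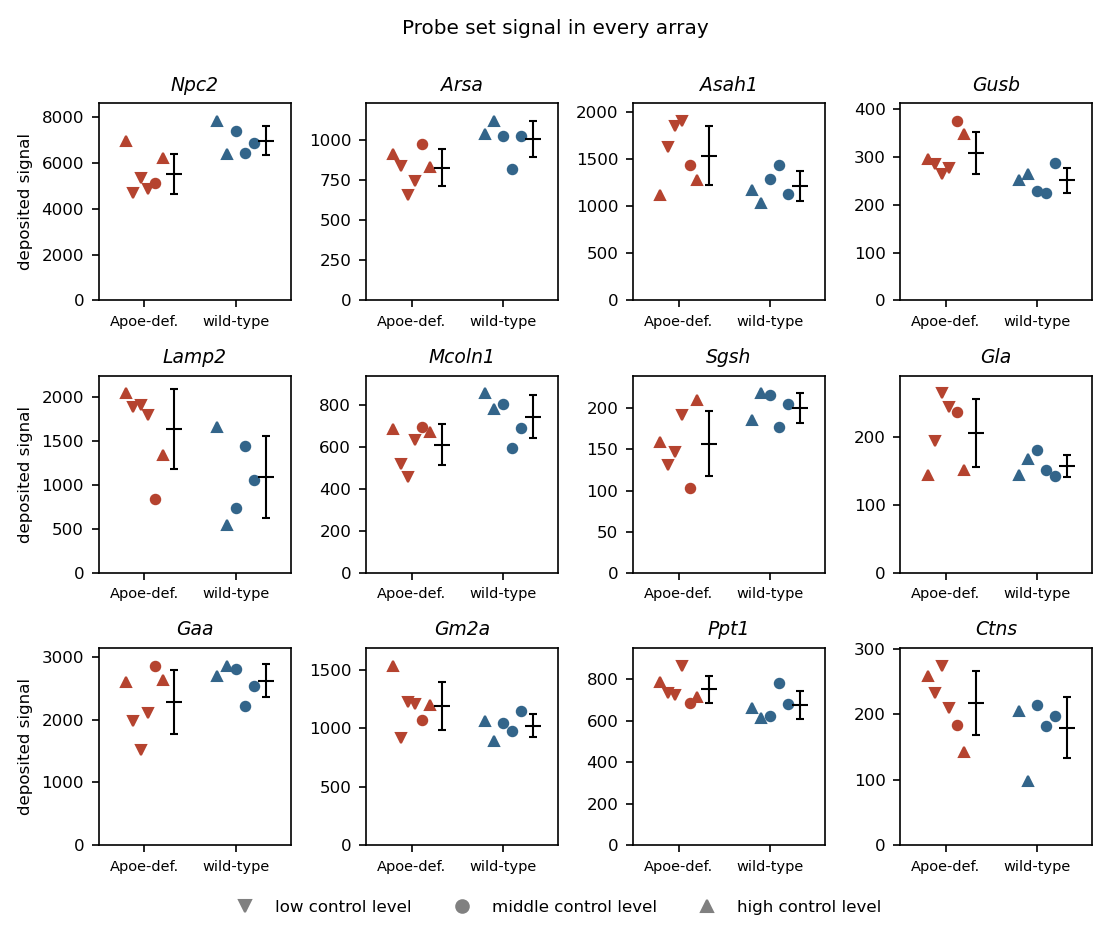
Deposited probe set signal (y axis, linear, from 0) in every array for the 12 lysosomal genes of smallest p, with Apoe-deficient arrays on the left and wild-type arrays on the right of each panel. Bars give the mean and SD (n = 6 and n = 5) and the marker shape gives the level of the hybridisation controls; the groups overlap in each panel.

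Glycolipid hydrolases had 3 of 5 differences above 0 and 0 calls. Arsa, the sulfatase of the myelin lipid sulfatide, ran from 655.1 to 973.5 with a median of 834 in Apoe-deficient ganglia, against 1032.9, 1116.1, 1023.7, 814.6 and 1024.8 in wild-type ganglia. On the normalised scale 3 of 6 Apoe-deficient arrays lay below all wild-type arrays (-0.30, SE 0.12, limma adjusted p = 0.20). Gla, the galactosidase lost in Fabry disease in humans, ran from 143.6 to 263.7 with a median of 215 in Apoe-deficient ganglia, against 143.1, 167.4, 180.1, 151.2 and 142.6 in wild-type ganglia. Of its 6 Apoe-deficient arrays 4 lay above all wild-type arrays and the remaining 2 lay among them (0.35, SE 0.18, limma adjusted p = 0.28). Glb1, the beta-galactosidase, had a difference of 0.14, Neu1, the sialidase, one of 0.05, and Hexa, the alpha subunit of hexosaminidase, one of -0.17, with limma adjusted p from 0.53 to 0.86.

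Hydrolases of glycosaminoglycans, the sugar chains of proteoglycans, had 4 of 5 differences above 0 and 0 calls. Gusb, the beta-glucuronidase, ran from 264.1 to 375.5 with a median of 291 in Apoe-deficient ganglia, against 252.4, 263.9, 228.3, 225.4 and 288.3 in wild-type ganglia. On the normalised scale 5 of 6 Apoe-deficient arrays lay above all wild-type arrays (0.27, SE 0.12, limma adjusted p = 0.21). Sgsh, a sulfatase of heparan sulfate, ran from 102.5 to 209.9 with a median of 153 in Apoe-deficient ganglia, against 185.3, 218.0, 216.5, 177.4 and 205.7 in wild-type ganglia. It was the 1 gene of this group with a difference below 0, with 4 of 6 Apoe-deficient arrays below all wild-type arrays (-0.34, SE 0.16, limma adjusted p = 0.26). Ids and Idua, which act on heparan and dermatan sulfate, had differences of 0.20 and 0.19, and Naglu, which acts on heparan sulfate, one of 0.05, with limma adjusted p from 0.58 to 0.88.

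Hydrolases of glycoprotein sugars and glycogen, the peptidase and progranulin stayed within 0.25 log2 units of 0. Gaa, the acid glucosidase that degrades glycogen, ran from 1508.9 to 2857.5 with a median of 2359 in Apoe-deficient ganglia, against 2700.7, 2857.4, 2802.5, 2210.9 and 2543.4 in wild-type ganglia (-0.24, SE 0.16, limma adjusted p = 0.39). Its Apoe-deficient arrays lay on both sides of the wild-type arrays. Man2b1 and Manba, which remove mannose, had differences of -0.05 and 0.01, and the fucosidase Fuca1 one of -0.06. Tpp1, a peptidase that takes tripeptides off the ends of proteins, had a difference of 0.07 (95% interval -0.12 to 0.27). Grn, progranulin, which is secreted and cut into granulins in lysosomes, averaged 7589 ± 2315 in Apoe-deficient ganglia (SD, n = 6) and 8031 ± 432 in wild-type ganglia (SD, n = 5), a difference of -0.09. Its 3 Apoe-deficient arrays of low hybridisation controls (described below) were at 6474.1, 5666.4 and 4960.4 and the other 3 at 11150.2, 8503.0 and 8780.7.

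The arrays differed in their hybridisation controls, and part of the lysosomal genes differed between arrays of low and of higher control signal. Signals of these spiked-in transcripts were divided into 3 levels at their 2 widest gaps. The mean log2 control signal was 10.59 to 10.80 in the low, 11.49 to 11.84 in the middle and 12.23 to 13.02 in the high level. The cut between middle and high (11.84 to 12.23) is little wider than a step inside the high level (12.23 to 12.55), so that division is less clear. The low level held replicates 2, 3 and 4 of the Apoe-deficient group. The middle level held Apoe-deficient replicate 5 with wild-type arrays 3, 4 and 5, and the high level held Apoe-deficient arrays 1 and 6 with wild-type arrays 1 and 2. The labels name no batch, and the low level holds Apoe-deficient arrays only, so level and genotype cannot be told apart there. The summed signal of the 30 genes was 46522, 45437 and 45662 in the 3 low arrays and 54393 to 61260 in the other Apoe-deficient arrays, against 50572 to 57283 in wild-type arrays. The summed deposited signal of 16 noradrenergic neuron markers was 81385 to 88472 in the low arrays. It was 120312 to 152948 in the other Apoe-deficient arrays and 113279 to 156797 in wild-type arrays. After normalisation the markers' mean log2 deviation from their own means was 0.05, -0.15 and -0.09 in low arrays 2, 3 and 4. It was -0.24, 0.17 and 0.08 in Apoe-deficient arrays 1, 5 and 6, and -0.02 to 0.11 in wild-type arrays. Whether the low arrays held less neuronal RNA, and whether the lysosomal sum moved with neuronal RNA, was not tested. On the normalised scale the 3 low arrays all lay below the other 3 Apoe-deficient arrays for 10 of 30 lysosomal genes, among them Idua (-0.64), Gaa (-0.61) and Grn (-0.51), where 14.6% of all genes did. They all lay above for 1 of 30, Asah1 (0.41), where 14.2% of all genes did. For the other 19 lysosomal genes the arrays overlapped, and the mean was higher in the low arrays for 9 of 30 and lower for 21. In bulk tissue, fewer cells of a type and less RNA per cell cannot be told apart.

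Without the 3 low arrays, 0 of 30 genes were called by limma (0.294% of all genes were), and more differences lay above 0. An unadjusted p under 0.05 was reached by 4 of 30 (13.3%), against 10.2% of all genes in that fit. The number above 0 was then 22 of 30, against 15 of 30 with all arrays, and the median was 0.07, against -0.01. The median over all genes was -0.04 in both fits. The direction changed for Gaa (0.06), Grn (0.17), Hexa (0.06), Psap (0.04), Man2b1 (0.16), Cln3 (0.10), Fuca1 (0.03), Lamp1 (0.04) and Manba (-0.09). Of the genes described above, Gusb was 0.39 (0.27 with all arrays) and Idua 0.50 (0.19), while Asah1 was 0.10 (0.30), Gla 0.12 (0.35), Ctns 0.08 (0.27), Arsa -0.14 (-0.30) and Mcoln1 -0.11 (-0.30). Npc2 (-0.26), Sgsh (-0.38) and Lamp2 (0.39) kept their direction. In a fit blocked on that level the median was 0.07 (-0.04 over all genes) and 0 of 30 genes were called, where 0.534% of all genes were. That fit had 4 of 30 (13.3%) at an unadjusted p under 0.05, against 11.5% of all genes. Within the high level, 2 arrays against 2, the median was 0.09 (-0.05 over all genes) with 18 of 30 above 0. There 0 of 30 were called, where 2 of 8577 genes were, and 0 had an unadjusted p under 0.05, against 9.84% of all genes. Within the middle level, 1 Apoe-deficient array against 3 wild-type arrays, the median was 0.04 (-0.01 over all genes) with 19 of 30 above 0. With 1 array in a group, only the size of the differences is given. Lamp2 was -0.33 there, below 0, and Npc2 stayed below 0. That comparison was chosen after seeing the data.

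**Figure D3:**
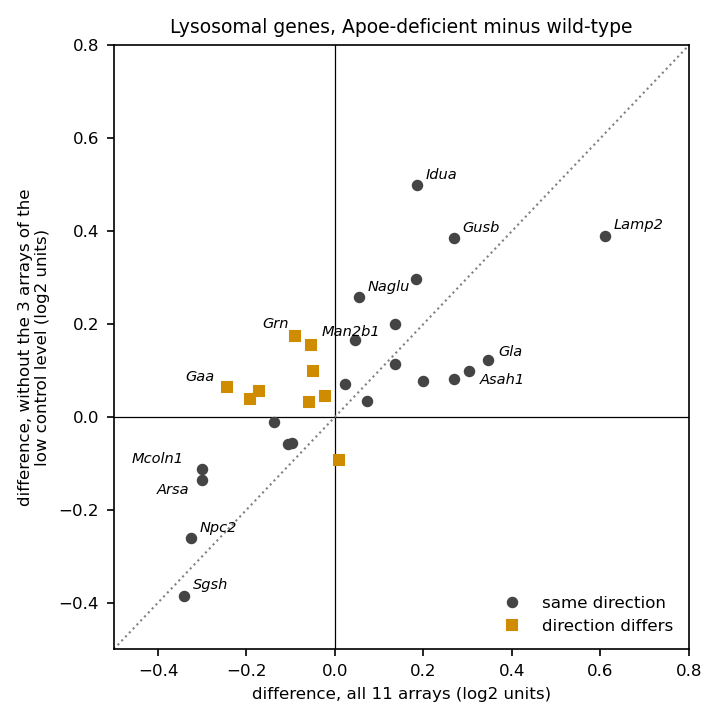
Each point is 1 of 30 lysosomal genes, with the log2 difference (Apoe-deficient minus wild-type) from all 11 arrays on the x axis and that without the 3 arrays of the low control level on the y axis. Squares mark the 9 genes whose direction differed, 8 of them below 0 with all arrays, and the dotted line marks equal values.

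Probe sets of the same gene did not always give the same answer. In a fit of all 12757 single-gene probe sets past the filter, 0 of the 53 lysosomal probe sets were called, where 1.43% of all were, and 9 had an unadjusted p under 0.05. Of 17 genes with several such probe sets, 11 had them all in 1 direction and 6 in both: Fuca1, Grn, Idua, Lipa, Neu1 and Psap. The 4 probe sets of Lamp2 gave 0.61, 0.42, 0.36 and 0.15, all above 0, and the value used above is the highest of them. In wild-type ganglia the probe set at 0.15 had a mean signal of 1109, against 1089 for the one used. In Apoe-deficient ganglia the means were 1270 and 1637. The choice by highest mean over all arrays thus rested on the Apoe-deficient arrays, where the probe set used is high. For Scarb2 the brighter probe set gave 0.02 and the other, at 1064 ± 210 in Apoe-deficient (SD, n = 6) and 729 ± 58.0 in wild-type ganglia (SD, n = 5), gave 0.49 (SE 0.13, limma adjusted p = 0.080). For Gm2a the other probe set gave 0.65 (SE 0.24, limma adjusted p = 0.165) against 0.18 for the brighter one. The paired probe sets of Npc2 (-0.32 and -0.21), Sgsh (-0.34 and -0.34), Gaa (-0.24 and -0.29), Mcoln1 (-0.30 and -0.15) and Gusb (0.27 and 0.22) each shared a direction. The probe sets that stand for Grn and Gaa carry the platform's suffix x, which marks probes that can match other transcripts. Those that stand for Lamp2, Mcoln1 and Lipa carry the suffix s, and whether their probes match other transcripts was not checked. The 5 probe sets below the filter had mean signals of 44.8 or less and were not tested.

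**Figure D4:**
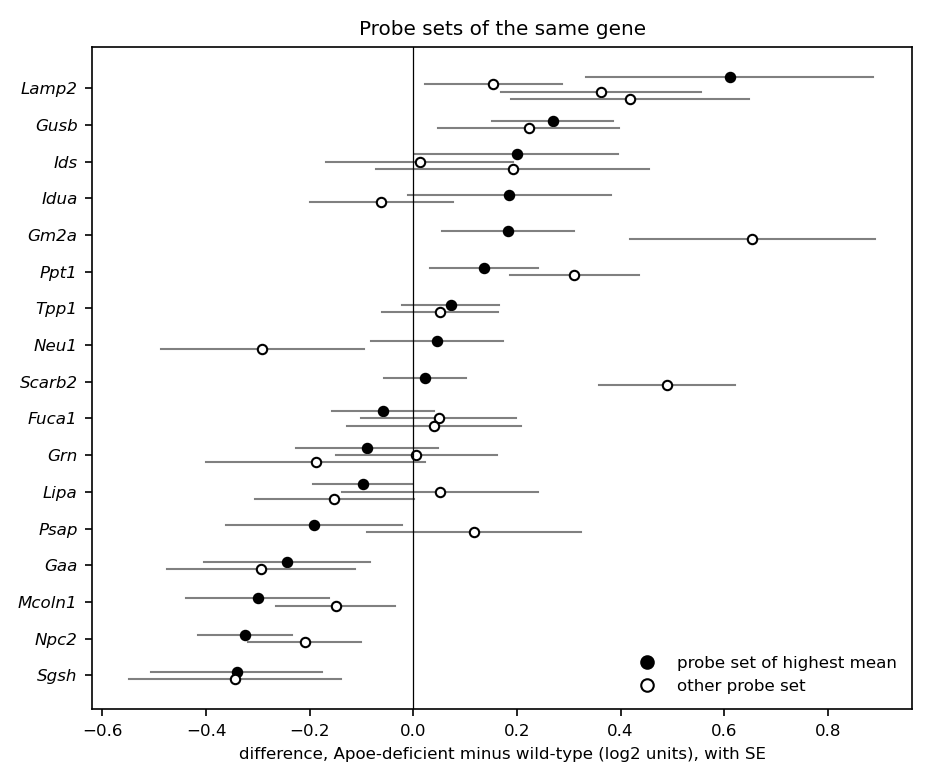
Log2 differences, Apoe-deficient minus wild-type (x axis, with SE), of every probe set past the filter for the 17 lysosomal genes that have several. Filled points are the probe sets of highest mean, open points the others; the open points of Scarb2 (0.49) and Gm2a (0.65) lie apart from the filled ones (0.02 and 0.18).

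Macrophages, which are rich in lysosomes, are a cell type whose markers differed between the groups. Of 22 macrophage markers 19 were measured, and 11 rose and 0 fell in Apoe-deficient ganglia by limma (background 1.26% higher). C1qc, a chain of the complement protein C1q, rose by 1.43 (SE 0.15, limma adjusted p = 0.00034), the leukocyte membrane protein gene Cd53 by 1.62 and the lysozyme gene Lyz2, whose sequence is close to that of Lyz1, by 1.19. Cd68, a membrane glycoprotein of macrophage endosomes and lysosomes, rose by 0.82, and the receptor gene Csf1r by 0.53, at the threshold (limma adjusted p = 0.0498), while Adgre1 differed by 0.07 and Cd14 by 0.02 and did not pass. The summed signal of the 19 markers ran from 12958 to 17868 in Apoe-deficient ganglia, with a median of 15481, against 7682 to 9546 in wild-type ganglia, with a median of 8683, so the groups did not overlap. The summed signal of the 30 lysosomal genes ran from 45437 to 61260 in Apoe-deficient ganglia, with a median of 50458, and from 50572 to 57283 in wild-type ganglia, with a median of 54398, so there the groups overlapped. The lowest group mean among these 19 was 97.2, for Aif1 in wild-type ganglia. The remaining markers of the 22 had probe sets that did not pass the filter on low values, so that minimum does not cover them. The part of macrophages in the lysosomal signal was not tested. Of the fits without 1 array, those that left out Apoe-deficient replicate 3, wild-type replicate 2 or wild-type replicate 3 gave 7 calls each. There were 5 in the fit blocked on control level, and 5 when the low-level arrays were left out.

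**Figure D5:**
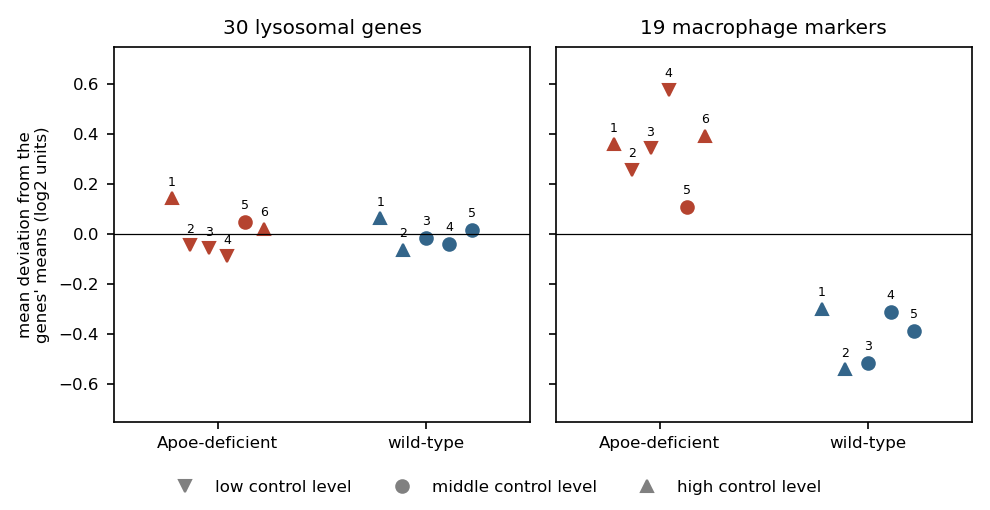
Mean deviation (y axis, log2 units) of 30 lysosomal genes (left) and 19 macrophage markers (right) from the genes' own means over 11 arrays, 1 point per array labelled with its replicate number, Apoe-deficient left of wild-type. The lysosomal means run from -0.09 to 0.14 in Apoe-deficient and from -0.06 to 0.06 in wild-type arrays and overlap; the macrophage means run from 0.11 to 0.58 in Apoe-deficient and from -0.54 to -0.30 in wild-type arrays and do not.

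The labels were checked against other genes. Apoe had a signal of 143 ± 84.6 in Apoe-deficient (SD, n = 6) and 15155 ± 3020 in wild-type ganglia (SD, n = 5). Th and Dbh, enzymes of noradrenaline synthesis that define sympathetic neurons, had mean signals of 13300 and 11644 in Apoe-deficient and 14555 and 14358 in wild-type ganglia, and 0 of 16 measured noradrenergic neuron markers were called by limma (4 at an unadjusted p under 0.05). The satellite glia gene Fabp7 was present too, at mean signals of 7490 in Apoe-deficient and 6678 in wild-type ganglia. Of 9 measured satellite glia markers 0 were called (2 at an unadjusted p under 0.05). Of 6 mast cell markers 4 rose (5 at an unadjusted p under 0.05). Of 8 fibroblast markers 1 rose (Postn), with 4 at an unadjusted p under 0.05, all 4 higher, and a median difference of 0.46. Among 8 endothelial, 6 adipocyte and 6 Schwann cell markers 0 were called (3, 1 and 0 at an unadjusted p under 0.05). All 6 adipocyte markers had differences below 0, from -1.23 to -0.48, with a median of -0.75 and a median SE of 0.39. The lack of calls there does not show that the groups were alike.

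Other genes of the lysosomal pathway gave few calls. Of 130 listed genes 98 were measured, 1 rose and 3 fell by limma, where 1.26% and 0.676% of all genes did, and the median difference was -0.09 against -0.04 for all genes. The gene that rose was Cd68, which is also a macrophage marker and is given above; Laptm5, on both lists too, differed by 0.16 (limma adjusted p = 0.59). Ulk1, the kinase that starts autophagy, fell by 0.84 (SE 0.14, limma adjusted p = 0.0075), with a signal of 380 ± 53.6 in Apoe-deficient (SD, n = 6) and 692 ± 138 in wild-type ganglia (SD, n = 5), and was called in each of the 11 fits without 1 array. Ap1m1, a subunit of the adaptor that sorts hydrolases into vesicles, fell by 0.54 (SE 0.11, limma adjusted p = 0.0254), and Atp6v1e1, a subunit of the proton pump, by 0.25 (SE 0.06, limma adjusted p = 0.0458). Ap1m1 kept its call in 5 of those 11 fits and lost it when Apoe-deficient array 2 or 3, or any wild-type array but 4, was left out. Cd68 kept it in 7 and lost it when Apoe-deficient array 4, or wild-type array 1, 3 or 5, was left out. Atp6v1e1 kept it in 1, the fit without Apoe-deficient replicate 1.

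By list, the calls were 1 of 17 proton pump genes, 1 of 22 delivery genes, 0 of 10 genes of the TFEB family and of mTORC1, 0 of 12 other hydrolases, 1 of 13 other membrane proteins and 1 of 24 autophagy genes. The share over all genes was 1.93%. The lists with 0 calls each held 2 genes at an unadjusted p under 0.05. Mtor, the kinase whose activity keeps TFEB out of the nucleus, differed by -0.42 (limma adjusted p = 0.076) and Mitf, a relative of TFEB, by 0.40 (0.16 on the same test). Among other hydrolases the smallest p belonged to Plbd2 (-0.35) and Galns (-0.41), and neither passed. Leaving out any single one of Apoe-deficient arrays 2, 3 and 4 or of wild-type arrays 1, 3 and 5 gave 2 calls in place of 4. The fit blocked on control level gave 1, and 0 remained once the low-level arrays were dropped, where 0.294% of all genes were called.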

How the data were processed

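Total RNA of laser-captured sympathetic ganglia was hybridised to 11 Affymetrix arrays. The deposited table holds 1 intensity per probe set and array on a linear scale, and GCOS 1.4 is the software named, per the submitters' processing notes. The sources used here do not give the settings of its signal algorithm. Each array had a 2% trimmed mean near 500.2 and a median of 163 to 188.6. Precision is limited by how few arrays there are. Control probe sets (64) were left out. Here log2(signal + 16) was computed and arrays were quantile normalised. A probe set was kept if 5 or more arrays exceeded the 40th percentile of the whole table, each gene was represented by its probe set of highest mean, and limma 3.58.1 in R 4.3.3 (intensity trend, two-sided) compared 6 Apoe-deficient with 5 wild-type arrays, with Benjamini-Hochberg adjustment over 8433 genes and a threshold of 0.05. The test was tested on simulated data.

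Gene names come from the platform annotation, and promoter sequences from RefSeq (GRCm38.p6). Hybridisation control levels were read from the control signals at the 2 widest gaps. Figures were drawn with matplotlib 3.10.9. The genes, lists, alternatives and tests were chosen with earlier results of these data known. By the naming rule, values by array are given for the 12 genes of smallest p, and at most 4 genes of each pathway list are named. Other pseudocounts, filters, scalings and probe set rules were tried, as were array weights, no variance trend, a replicate block, fits by control level, and each array left out in turn. Fits without 1 array for the macrophage and pathway counts, and the fit within the middle control level, were chosen after seeing the data. Same-numbered arrays of the groups did not deviate together (correlations from -0.18 to 0.15), so the replicate numbers were not taken as pairs.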

Additional observations from a re-analysis of the deposited data

Results flagged for a closer look

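Among 60 combinations of a lysosomal gene and a group, 7 single arrays stood apart from the rest of their group, where chance flags about 1 in 20 groups. On the normalised log2 scale Scarb2 was high in Apoe-deficient replicate 1 (12.23, next array 12.06) and low in wild-type replicate 2 (11.84, next 12.06). Fuca1 was high in Apoe-deficient replicate 1 (10.76, next 10.48). Lamp1 (12.58, next 12.78) and Npc1 (7.15, next 7.82) were low in Apoe-deficient replicate 4. In wild-type ganglia Ctns was low in replicate 2 (6.77, next 7.69) and Naglu in replicate 5 (7.24, next 7.59).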

How the results depend on the processing

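Over 24 alternatives, 0 lysosomal genes were called higher, and 1 was called lower, Npc2, with array weights and without Apoe-deficient replicate 1. Of 720 gene values under alternatives 62 changed direction, and 10 of 30 genes kept theirs throughout. With array weights Naglu was -0.0019, and with the mean of probe sets Fuca1 was 0.0097 and Neu1 -0.12. Blocked on control level, Cln3 was 0.062, Fuca1 0.045, Gaa 0.045, Grn 0.17, Lamp1 0.030, Man2b1 0.18, Manba -0.069, Psap 0.020 and Smpd1 0.024. Without the low level Cln3 was 0.10, Fuca1 0.032, Gaa 0.064, Grn 0.17, Hexa 0.056, Lamp1 0.044, Man2b1 0.16, Manba -0.092 and Psap 0.039. Within the high level Cln3 was 0.079, Fuca1 0.15, Gla -0.049, Grn 0.20, Lamp1 0.044, Man2b1 0.28 and Neu1 -0.024. Within the middle level, with 1 Apoe-deficient array, Arsa was 0.035, Cln3 0.037, Ctns -0.14, Gaa 0.20, Grn 0.16, Hexa 0.19, Lamp1 0.022, Lamp2 -0.33, Man2b1 0.047, Manba -0.20, Npc1 0.014, Ppt1 -0.032, Psap 0.36, Scarb2 -0.011, Smpd1 0.20 and Tpp1 -0.13. The median difference was 0.075 without the low level and 0.085 within the high level, against -0.036 and -0.049 over all genes. Macrophage calls were 5 with the block and 5 without the low level, and pathway calls 1 and 0. The cause was not tested.

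Leaving out 1 array at a time, genes called lower ran from 0 to 1, macrophage calls from 7 to 12, pathway calls from 2 to 5 and the median difference from -0.055 to 0.031. The differences ran from -0.13 to 0.044 for Cln3, from -0.15 to 0.015 for Grn, from -0.043 to 0.020 for Lamp1, from -0.11 to 0.038 for Man2b1, from -0.039 to 0.052 for Manba, from -0.067 to 0.12 for Naglu, from -0.0080 to 0.084 for Neu1, from -0.16 to 0.019 for Npc1 and from -0.024 to 0.040 for Scarb2. With the replicate number as a replicate block, over 10 arrays, 0 of 30 genes were called, the median was -0.0021 and the lowest limma adjusted p was 0.055, for Npc2. Counts over all genes ran from 75 to 267 without 1 array, against 163 in the main fit. They were 668 with array weights, 45 blocked on control level, 24 without the low level and 2 within the high level.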

Other observations

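The values of the lysosomal genes spread more among Apoe-deficient than among wild-type arrays. The SD of the log2 value was larger in Apoe-deficient arrays for 21 of 30 genes, with a median of 0.26 in Apoe-deficient (n = 6) and 0.15 in wild-type arrays (n = 5). Apoe-deficient replicate 1 lay above the genes' own means for 24 of 30 genes, and the 3 arrays of low hybridisation controls for 12, 12 and 10 of 30. The same comparison of SDs was not made over all genes, so the larger spread is not shown to be particular to these genes. The low control level held Apoe-deficient arrays only. The spread was not tested.

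The 3 measured lysosomal genes on the X chromosome, singled out after their values were seen, had differences above 0: Lamp2 0.61, Gla 0.35 and Ids 0.20. None of the 3 passed the threshold, and all 3 had higher means in the low control level arrays than in the other Apoe-deficient arrays (by 0.44, 0.44 and 0.24).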
